A study of Mus musculus with 6 samples.

Results

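The BCL2 family genes described here are 10 genes that encode proteins deciding whether a cell keeps or loses the integrity of its mitochondria. They were taken by gene symbol: the anti-apoptotic Bcl2l1, Mcl1 and Bcl2, the effectors Bax and Bak1, and the BH3-only genes Bid, Bcl2l11, Bad, Pmaip1 and Bbc3. All 10 were found among the 17463 genes of the count table, and all 10 were among the 11277 genes that passed the filter on low counts.

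TER119-negative erythroblasts, that is, red cell precursors that do not yet carry the erythroid surface protein TER119, were purified from the E14.5 fetal liver (the stage given in the study's text) of C57BL/6J mice and grown in medium with erythropoietin (Epo). The 3 cholesterol samples received 40 µM cholesterol for 30 h. The 3 control samples received none and are called untreated in the sample labels, while the study's figure legends speak of a vehicle. The methods state that TER119+ cells were sorted before RNA extraction, which the labels do not mention. The labels give no mutation or transgene for either group. Samples are numbered 1 to 3 in each group. The legend of the study's figure that holds an RNA-seq panel speaks of 3 independent experiments, without naming the RNA-seq samples. Neither source says whether a number stands for a litter, a culture or a day. The p-values therefore measure only the spread between these samples, which may be technical. These are short-term cultures of primary cells measured in bulk, in which fewer cells of a type and less RNA per cell cannot be told apart.

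BCL2 proteins act at the outer mitochondrial membrane. Bax and Bak1 form pores that release cytochrome c and start the caspase cascade, the anti-apoptotic proteins hold them and their activators in check, and the BH3-only proteins carry stress signals to both. The contact between them is the BH3 helix, a short stretch of one partner that sits in a groove of the other. In the erythroid lineage Epo acts through its receptor and STAT5 to maintain Bcl2l1, whose long product Bcl-xL keeps maturing erythroblasts alive, whereas Mcl1 is known for its need in earlier hematopoietic cells. Much of the family's control lies in protein cleavage, phosphorylation and degradation, none of which RNA-seq of mRNA reads.

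The coding stretches of the BH3 helix are given for 6 members because this is the part the 3 classes have in common. Each was read from the GENCODE vM21 transcript of the gene (build GRCm38, coding strand, 5′ to 3′), and capitals mark 6 codons: a leucine codon, 3 codons of any kind, a codon for a small residue, and an aspartate codon.
Bcl2l1: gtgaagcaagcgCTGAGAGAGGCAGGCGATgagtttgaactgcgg
Mcl1: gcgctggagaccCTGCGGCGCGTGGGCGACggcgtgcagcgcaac
Bax: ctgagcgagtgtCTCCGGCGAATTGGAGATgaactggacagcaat
Bak1: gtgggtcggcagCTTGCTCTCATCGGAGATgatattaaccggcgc
Bid: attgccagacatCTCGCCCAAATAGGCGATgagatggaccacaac
Bbc3: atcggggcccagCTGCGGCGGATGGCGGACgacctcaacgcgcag
The Bcl2l1 stretch lies at chr2:152829691-152829735 on the minus strand, in exon 2 of 3. The Mcl1 stretch lies at chr3:95659424-95659468 on the plus strand, in exon 1 of 3. The effector stretches lie at chr7:45465991-45466035, minus strand, in exon 3 of 6 of Bax and at chr17:27022525-27022569, minus strand, in exon 4 of 6 of Bak1. The BH3-only stretches lie at chr6:120897283-120897327, minus strand, in exon 4 of 6 of Bid and at chr7:16313761-16313805, plus strand, in exon 3 of 4 of Bbc3. Each of the 9 members read this way held the pattern once, with glycine as the small residue in all but Bad, which has serine, and Bbc3, which has alanine. The tenth member, Pmaip1, was not read. The pattern alone does not mark the family, since 7338 of 21584 protein-coding genes (34%) hold it somewhere in their longest coding sequence.

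Total counts lay between 19826797 and 20061702 per sample, and 3 counts, the smallest level taken as detectable, corresponded to at most 0.156 CPM (CPM, that is, the count scaled to a common library size after TMM normalization). Erythroid markers were expressed in every sample, among them Slc4a1, which encodes the band 3 anion exchanger of the red cell membrane, at 9747 to 12978 CPM. Once the group means were subtracted, samples that shared a number correlated across genes with r of 0.729, 0.348 and 0.825 for numbers 1, 2 and 3. Samples with other numbers gave at most 0.346, so numbers 1 and 3 stood apart from unlike-numbered samples, while number 2 hardly did. Counts of called genes are given both with condition alone in the model and with a block for the number. Values of single genes are mostly those with the block. No pair of libraries agreed within sampling noise, as the chi-square per degree of freedom was at least 8.64.

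The first question was how much of each message these erythroblasts held, on a scale that allows genes to be compared. On the authors' normalized values, taken as FPKM (a level corrected for library size and transcript length), the order was the same in both groups: Bax, Bcl2l1, Mcl1, Bak1, Bbc3, Bad, Bid, Pmaip1, Bcl2l11 and Bcl2. Bax led with 93.2 ± 1.86 FPKM (SD, n = 3) in control and 91.4 ± 3.54 FPKM (SD, n = 3) with cholesterol. At the other end Bcl2, the founding gene of the family, was close to absent, with 0.0933 ± 0.0666 FPKM in control and 0.107 ± 0.0473 FPKM with cholesterol. The ranges over all 6 samples overlapped between Bcl2l1 and Mcl1, between Bak1 and Bbc3, between Bad and Bid, and between Pmaip1 and Bcl2l11, so that these neighbours cannot be put in order; the other neighbours did not overlap. The abundant members were thus Bcl2l1 and Mcl1 on the anti-apoptotic side, both effectors, and a single BH3-only gene, Bbc3, whose 25.4 to 44.6 FPKM stood above the 1.68 to 9.65 FPKM of the other BH3-only genes.

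**Figure D1:**
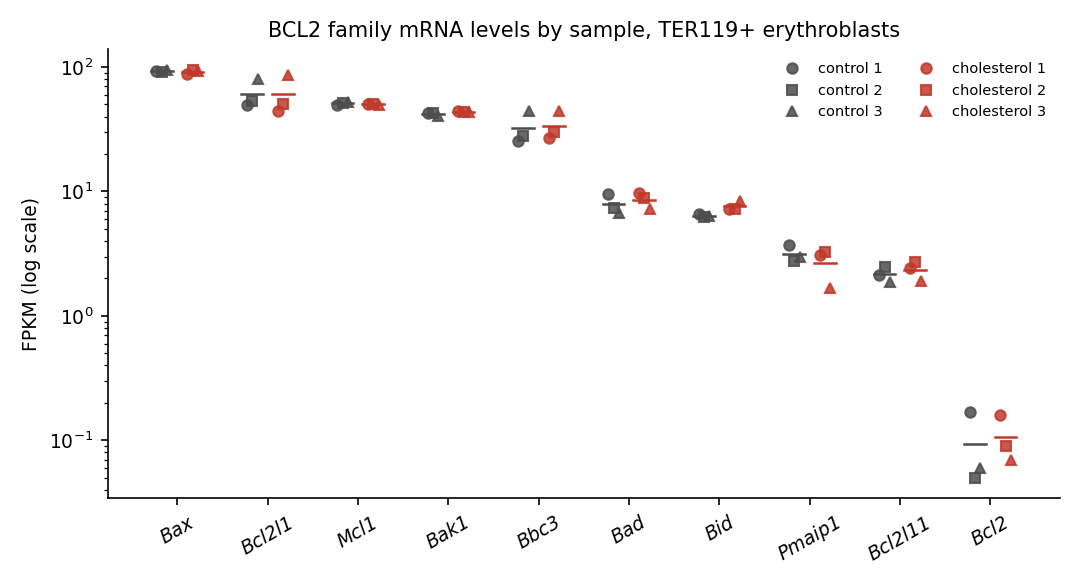
Level of each BCL2 family member in FPKM (log axis) in control (grey) and cholesterol (red) samples, where circles, squares and triangles are samples 1, 2 and 3 and horizontal lines are group means (n = 3). Bax sits near 93 FPKM in both groups and Bcl2 below 0.2 FPKM, and the triangles of Bcl2l1 and Bbc3 stand above the other samples in both groups.

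The comparison of cholesterol with control asks whether excess cholesterol moved the survival or death genes. None of the 10 members passed an adjusted p of 0.05 in edgeR's quasi-likelihood test, with or without the block. Without the block this was also true of nearly all genes, as 1 of 11277 (0.00887%) passed, and at an unadjusted p under 0.05 it was 297 genes (2.63%) and 0 members. With the block 772 genes (6.85%) passed the adjusted threshold and 2213 (19.6%) the unadjusted one, to which the members contributed 0 and 1. Of the 772 genes 186 were higher and 586 lower, a split that became 278 higher and 435 lower when library totals replaced the TMM factors. DESeq2 also called 0 members in both designs. The median log2 fold change of the members was 0.03 without and 0.04 with the block, beside 0.01 for all genes tested in either design. Estimated log2 fold changes ran from -0.27 (Pmaip1) to 0.22 (Bid) without the block and from -0.28 to 0.22 for the same genes with it. With the block, which removes the variation between numbers, the 95% confidence intervals of Bcl2l1, Mcl1, Bax, Bak1 and Bbc3 all lay between an 11.3% decrease and a 10.8% increase.

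**Figure D2:**
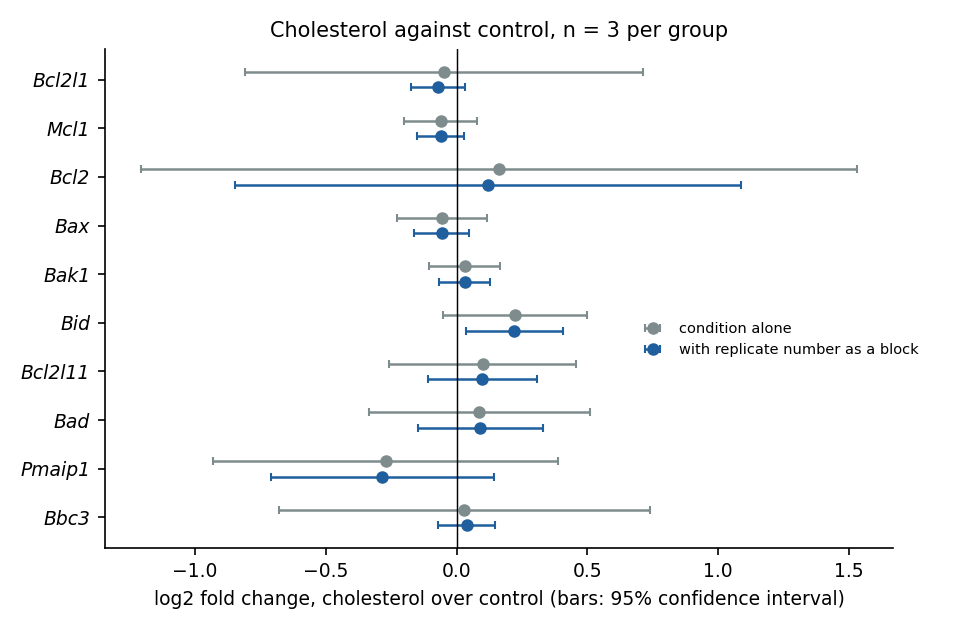
Log2 fold change of each member, cholesterol over control, with 95% confidence intervals, from the model with condition alone (grey) and with a block for the number (blue), 3 samples per group. The blue interval of Bid runs from 0.04 to 0.41 and the other 9 include 0, while the grey intervals of Bcl2l1 and Bbc3 are several times wider than the blue ones.

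Among the anti-apoptotic genes, Bcl2l1 encodes Bcl-xL, the family's main survival protein in maturing erythroblasts. Its level was 126, 134 and 210.0 CPM in control samples 1, 2 and 3 and 111, 125 and 218 CPM in cholesterol samples 1, 2 and 3. The groups overlapped, and sample 3 was far above the other samples in each. The log2 fold change was -0.05 (standard error, SE, 0.31) with condition alone and -0.07 (SE 0.05, adjusted p = 0.468 by edgeR) under the block. The blocked interval allowed anything from an 11.3% decrease to a 2.18% increase, whereas that without the block ran from a 42.9% decrease to a 63.9% increase. Without number 3 the blocked value was -0.14 (unadjusted p = 0.00609, adjusted p = 0.0786 in edgeR), and without number 1 it was -0.02. Bcl2l1 also makes a short splice form with the opposite effect, and counts per gene do not separate the forms.

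Mcl1, a survival protein of short half-life, was measured at 179, 180.0 and 193 CPM in control and at 174, 177 and 178 CPM with cholesterol. Every cholesterol value lay below every control value, by a gap of less than 1 CPM between the closest samples, and each same-numbered pair was lower with cholesterol, by log2 differences of -0.04, -0.02 and -0.11. Such patterns were common, as the groups did not overlap for 902 of 11277 genes (8%), including 2 members, and 2270 genes (20.1%) were lower in all 3 pairs, including 1 member. The fitted change of Mcl1 was -0.06 on the log2 scale (SE 0.04, adjusted p = 0.495 by edgeR) under the block. On the FPKM scale the groups of Mcl1 overlapped, at 49.6 to 52.3 in control and 49.6 to 50.8 with cholesterol. The SD of its log2 CPM within the control group was 0.06, against 0.40 for Bcl2l1, so of the anti-apoptotic pair Mcl1 was the steadier message.

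Bcl2 itself rested on few reads, with estimated counts of 12, 8 and 8 in control and 18, 10 and 4 with cholesterol. The summed counts were 28 in control (95% exact Poisson interval 18.6 to 40.5) and 32 with cholesterol (21.9 to 45.2), where the intervals cover counting error only. The log2 fold change was 0.12 (SE 0.46, adjusted p = 0.928 by edgeR) under the block, with an interval from -0.85 to 1.09. The data did not exclude changes within that interval, whose width reflects both the few counts and the spread between samples. The blocked value was 0.005 without number 2, 0.448 without number 3 and 0.006 in DESeq2. The length implied by count and FPKM varied from 2961 to 8062 bases between samples for Bcl2, against 4339 to 4744 bases for Bcl2l11, 957 to 1002 bases for Bad and a steadier length for the other members, so its FPKM also depends on which transcripts the reads were assigned to.

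The effectors varied little between samples. Bax measured 81.5, 77.4 and 85.3 CPM in control and 73.8, 79.7 and 81.3 CPM with cholesterol. Bak1 measured 88.0, 84.6 and 85.4 CPM in control and 87.7, 85.9 and 90.1 CPM with cholesterol. The groups overlapped for both genes, and no sample stood apart from the rest. With the block, the log2 fold change was -0.06 for Bax (SE 0.05, adjusted p = 0.604) and 0.03 for Bak1 (SE 0.05, adjusted p = 0.791) in edgeR's test. The intervals ran from a 10.5% decrease to a 3.44% increase for Bax and from a 4.51% decrease to a 9.34% increase for Bak1. Part of the exons of Bak1 (25.5% of its exonic bases) is shared with Ggnbp1 on the opposite strand, which was listed at 0.13 to 0.33 FPKM. Bax shares 12.2% of its exonic bases with the protein-coding Gm45808 on the same strand. That gene was not listed in the count table, so its level is not known, and its reads there could not be told apart from those of Bax by strand.

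**Figure D3:**
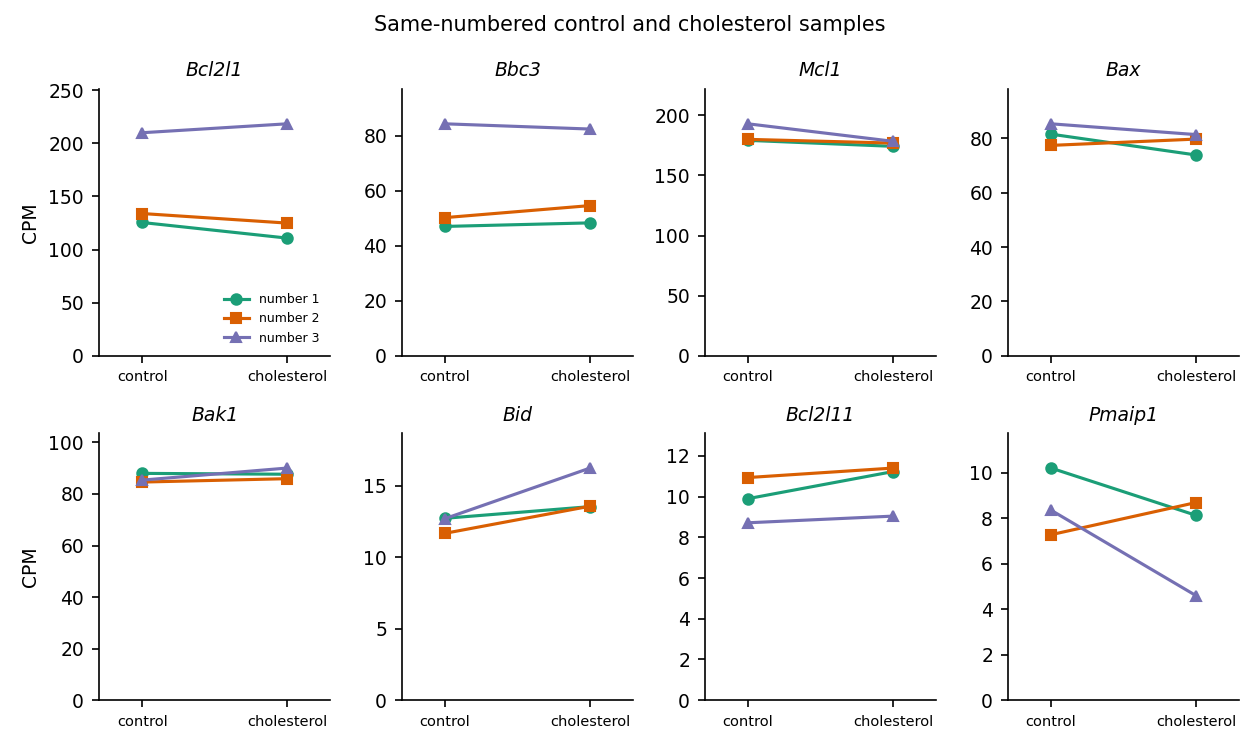
CPM of 8 members in control and cholesterol samples, with lines joining same-numbered samples (3 pairs) and every vertical axis starting at 0. For Bcl2l1 and Bbc3 number 3 stands apart on top in both groups, and for Bid all 3 lines rise.

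Of the BH3-only genes, Bid came nearest to a difference. Its product is cut by caspase-8 and so ties the death receptors to the mitochondria. Bid measured 12.7, 11.7 and 12.7 CPM in control and 13.5, 13.6 and 16.2 CPM with cholesterol. The groups did not overlap, on the FPKM scale either (6.19 to 6.56 against 7.21 to 8.34), and the log2 differences of the pairs were 0.09, 0.22 and 0.35, the largest being that of number 3. Being higher in all 3 pairs was shared with 2247 genes (19.9%) and with Bcl2l11 among the members. The log2 fold change of Bid was 0.22 in both designs, and 0.135 with condition alone when cholesterol sample 3 was left out. Its unadjusted p in edgeR's test was 0.0948 without the block (SE 0.11) and 0.0221 with it (SE 0.09), where adjustment over all genes gave 0.157. The blocked interval ran from 2.49% to 32.6% above control. Of the exonic bases of Bid, 17.7% are shared with Bcl2l13 on the opposite strand, a family member expressed at 39.4 to 42.6 FPKM. The counting is not stated to use strand, so reads of the shared bases cannot be assigned to one gene with certainty, and the fitted log2 change of Bcl2l13 was 0.02.

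Bcl2l11, which encodes the potent activator Bim, measured 9.90, 10.9 and 8.72 CPM in control and 11.2, 11.4 and 9.04 CPM with cholesterol. Each pair was higher with cholesterol, but the groups overlapped, since sample 3 was the lowest of each. The log2 fold change was 0.10 (SE 0.10, adjusted p = 0.655 by edgeR) under the block, and 0.06 without number 1.

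Bad, a sensitizer that binds Bcl-xL when growth factor signals fail, measured 9.30, 7.32 and 6.64 CPM in control and 9.06, 8.34 and 7.31 CPM with cholesterol. The groups overlapped and the pairs did not share a direction, with log2 differences of -0.04, 0.19 and 0.14. The fitted value was 0.09 (SE 0.11, adjusted p = 0.744 by edgeR) under the block. Gpr137, at 2.96 to 4.0 FPKM, shares 20.5% of the exonic bases of Bad on the opposite strand.

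Pmaip1 and Bbc3 encode Noxa and Puma, both classical targets of p53. Pmaip1 measured 10.2, 7.28 and 8.35 CPM in control and 8.13, 8.69 and 4.60 CPM with cholesterol. Cholesterol sample 3 was the lowest value by a wide margin, resting on 90 reads against 147 to 202 in the other samples, and the groups overlapped. Pairs 1 and 3 were lower and pair 2 higher, at log2 differences of -0.33, 0.26 and -0.86, which left a fitted change of -0.28 (SE 0.19, adjusted p = 0.472 in edgeR) with an interval from -0.71 to 0.14 under the block. The size of this value hung on single pairs, as it was -0.57 without number 2 (unadjusted p = 0.00497 and adjusted p = 0.104 in edgeR) and -0.05 without number 3.

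Bbc3 measured 47.0, 50.2 and 84.3 CPM in control and 48.3, 54.6 and 82.4 CPM with cholesterol. As for Bcl2l1, the groups overlapped and sample 3 stood far above the other samples of each group. The log2 fold change was 0.04 (SE 0.05, adjusted p = 0.761 by edgeR) under the block, with an interval from a 4.75% decrease to a 10.8% increase. It was 0.078 without number 3 and rounded to 0 without number 2.

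For Bcl2l1 and Bbc3 the large differences were between replicate numbers. A test of the replicate number in the blocked model, added after the data had been seen, passed for Bcl2l1 (adjusted p = 1.28e-09 in edgeR) and Bbc3 (adjusted p = 8.39e-09 in edgeR), which is 2 of 10 members beside 5220 of 11277 genes (46.3%). Bcl2l1 in sample 3 was 1.67 times its level in sample 1 in the control group and 1.97 times with cholesterol. Bbc3 gave 1.79 times and 1.71 times. Over the same samples Mcl1 gave 1.08 and 1.02 times, and its adjusted p for the number was 0.482. A survival gene and a death gene were thus both high in the same libraries, while Mcl1, Bax and Bak1 did not pass the test (lowest adjusted p = 0.324, for Bax).

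Other features of the libraries moved with the number as well. The globin genes took 17.9% and 16.2% of the counts in control and cholesterol sample 3, and 12.5% to 14.6% in the other samples. Summed neutrophil markers (9 genes) were 70.3, 253 and 674 CPM in control samples 1, 2 and 3 and 40.5, 110 and 280 CPM with cholesterol. The 8 macrophage markers summed to 18.4, 42.5 and 130 CPM in control and 13.1, 19.3 and 57.8 CPM with cholesterol. Sample 3 was the highest of its group in each of these sums, as it was for Bcl2l1 and Bbc3. The markers also differed between treatments. With the block, edgeR called all 9 neutrophil and 5 of 8 macrophage markers lower with cholesterol at an adjusted p under 0.05. Both tested mast cell and basophil markers (of 6 listed), 3 of 10 erythroid and 1 of 5 megakaryocyte markers were also called lower. Hepatocyte markers gave 0 calls out of 4. Over all genes, 586 of 11277 were called lower. Whatever the p, 8 of 8 macrophage, 10 of 10 erythroid and 4 of 5 megakaryocyte markers had a lower fitted level with cholesterol. With condition alone, 0 markers of each list were called. No listed marker was at 0 in every sample. Their part in the levels of the BCL2 family was not tested.

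**Figure D4:**
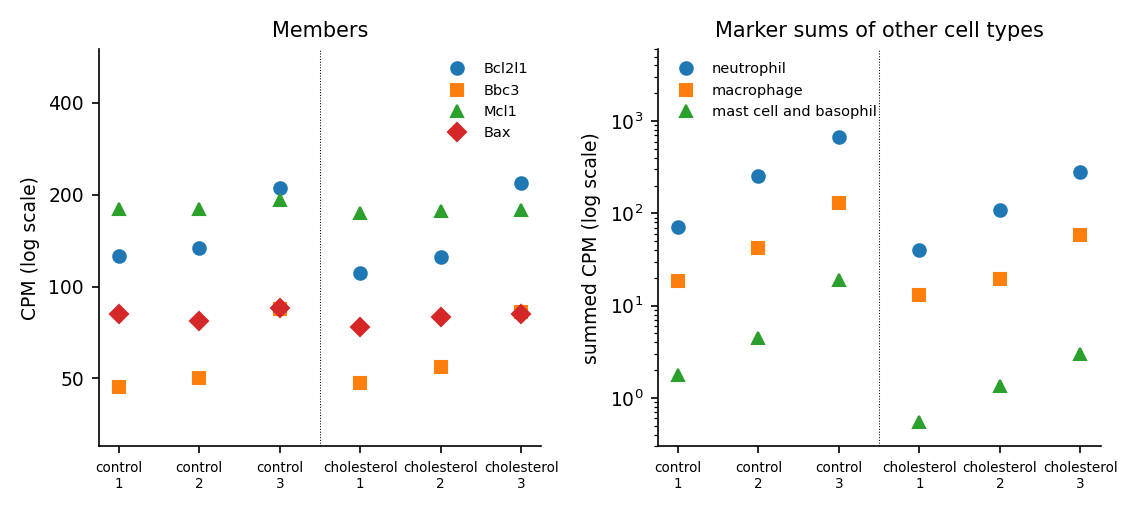
Left, CPM of Bcl2l1, Bbc3, Mcl1 and Bax in each sample (log axis); right, summed CPM of neutrophil, macrophage, and mast cell and basophil markers in the same samples (log axis), with a dotted line between control and cholesterol. Sample 3 is the highest of its group for Bcl2l1 and Bbc3 and for the 3 marker sums, and the Mcl1 points stay between 174 and 193 CPM.

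The pattern over samples can also be described by the genes most like it, among 7243 genes with a mean of at least 10 CPM and by Pearson's r of log2 CPM over the 6 samples. For Bcl2l1 these were Gpcpd1 (r = 0.998), Mafg (r = 0.997) and Iffo1 (r = 0.996), and 852 genes in all had r over 0.9. Bbc3 came 206th, with r = 0.969. For Mcl1 the nearest were Ube2c (r = 0.996), Cdk2ap2 (r = 0.994) and Nusap1 (r = 0.983), out of 123 genes with r over 0.9. For Bax they were Zdhhc16 (r = 0.980), Fyn (r = 0.975) and Sec22b (r = 0.974), out of 52. All samples in such a correlation share their libraries and the split by number, so these values are a description only.

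The balance of the family was described by summing FPKM over the 3 anti-apoptotic genes and over the 7 pro-apoptotic genes in each sample. The ratio was 0.539, 0.583 and 0.670 in control samples 1, 2 and 3 and 0.525, 0.534 and 0.678 in cholesterol samples 1, 2 and 3. The groups overlapped, and the means were 0.597 ± 0.0668 and 0.579 ± 0.0857 (SD, n = 3 each). Within pairs the log2 difference was -0.04, -0.13 and 0.02, a mean of -0.05 with an SD of 0.07, so the difference between treatments lay within the spread between numbers. On the FPKM scale Bcl2l1 supplied 49.6%, 50.8% and 60.6% of the anti-apoptotic sum in control and 46.9%, 49.8% and 63.3% with cholesterol. The FPKM ratio of Bcl2l1 to Bbc3, which were both high in sample 3, was 1.93, 1.93 and 1.81 in control and 1.65, 1.66 and 1.94 with cholesterol. It was lower with cholesterol in pairs 1 and 2 and higher in pair 3, and the groups overlapped. Summed over CPM instead, the ratio of anti- to pro-apoptotic genes was lower with cholesterol in each pair, at log2 differences of -0.06, -0.13 and -0.02 (mean -0.07, SD 0.05), so the sign in pair 3 depends on the scale. These sums treat messages as interchangeable and say nothing of the amounts of protein.

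The other genes of the pathway were read from 4 lists. Of 17 further BCL2 family genes, 16 were in the table, 10 were tested, and 0 passed the adjusted threshold in either design, with a median log2 fold change of 0.03 under the block, and an unadjusted p under 0.05 was reached there by 1 gene that was higher and 1 that was lower. The smallest p-values without the block belonged to Bcl2l12 (blocked log2 fold change -0.19, adjusted p = 0.195 in edgeR), Bnip1 (0.21, adjusted p = 0.153) and Bik (0.52, SE 0.41, adjusted p = 0.540). Bcl2l13, which like the mitophagy receptor Bnip3l sits in the outer mitochondrial membrane, averaged 294 CPM in control and 297 CPM with cholesterol, and Bnip3l averaged 191 and 197 CPM. Bcl2a1a, Bcl2a1b, Bcl2a1d, Bcl2l14, Bok and Hrk fell below the filter.

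Downstream of the mitochondria, 19 of 19 genes of the apoptosome, the caspases and their inhibitors were tested and 0 were called, with a median log2 fold change of -0.01, and an unadjusted p under 0.05 was reached with the block by Casp6 and Htra2. Casp6, an executioner caspase, did not overlap between groups, at 6.42 to 6.74 CPM in control and 7.31 to 8.77 CPM with cholesterol, and had an adjusted p of 0.243 in edgeR with the block. Diablo, which encodes an antagonist of the inhibitors, did not overlap either and lay the other way, at 57.6 to 58.0 CPM in control and 54.5 to 57.6 CPM with cholesterol (adjusted p = 0.776). The closest samples of Diablo were less than 0.1 CPM apart, and on the FPKM scale its groups overlapped (28.5 to 30.0 in control, 27.4 to 30.0 with cholesterol). Htra2, which antagonizes the inhibitors, had a blocked log2 fold change of -0.11 (adjusted p = 0.176), and Birc3, an inhibitor of apoptosis protein, one of -0.43 (SE 0.26, adjusted p = 0.393), which became -0.82 (adjusted p = 0.0425) without number 1. The Birc3 pairs did not share a direction, at log2 differences of 0.47, -0.55 and -1.02, so leaving out number 1 removed the pair that rose. In the death receptor arm, which reaches the mitochondria through Bid, 8 of 10 genes were tested and 0 were called, with a median of -0.06 and 1 gene lower at an unadjusted p under 0.05 with the block. Cflar, which holds caspase-8 in check, gave -0.23 (adjusted p = 0.138), Tnfrsf10b gave -0.17 (adjusted p = 0.332) and Tnfrsf1a gave -0.54 (SE 0.27, adjusted p = 0.323) in edgeR's test. The levels of Tnfrsf1a, 1.31, 3.41 and 10.6 CPM in control and 1.97, 2.47 and 4.85 CPM with cholesterol, were highest in sample 3 of each group. Without number 1 its blocked log2 fold change was -0.88 (adjusted p = 0.0115 in edgeR). Sample 3 was also the highest in the neutrophil and macrophage sums given above. In pair 1, however, Tnfrsf1a was higher with cholesterol, while both sums were lower. A link between them was not tested.

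Over all 11277 genes, 772 (6.85%) passed the adjusted threshold with the block and 1 without it. Among 12 partners and regulators of the turnover of BCL2 proteins, 1 passed with the block and 0 without it. This was Huwe1, a ubiquitin ligase known to mark Mcl1 protein for degradation, at 302, 312 and 273 CPM in control and 337, 332 and 323 CPM with cholesterol. The groups did not overlap, and the log2 fold change under the block was 0.16 (SE 0.04, adjusted p = 0.0257 in edgeR). The call was lost without any one of the 3 pairs, where the log2 fold change was 0.17 (adjusted p = 0.122) without number 1, 0.20 (adjusted p = 0.0560) without number 2 and 0.12 (adjusted p = 0.0965) without number 3. DESeq2 with the block gave 0.16 (adjusted p = 0.0745). Usp9x, which removes ubiquitin from Mcl1, averaged 177 CPM in control and 176 CPM with cholesterol. Ywhaz, a 14-3-3 protein of the family that holds phosphorylated Bad in the cytosol, gave -0.13 (SE 0.04, adjusted p = 0.0872 in edgeR), and Bag3, a cochaperone that binds Bcl2 proteins, gave 0.10 (adjusted p = 0.435).

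**Figure D5:**
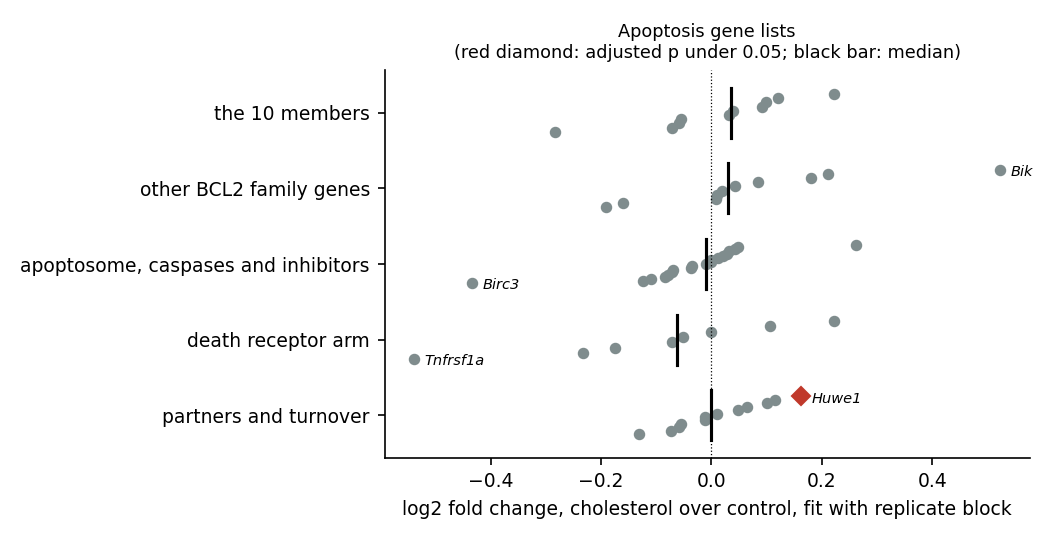
Log2 fold change, cholesterol over control, from the model with the replicate block, for the 10 members and for the tested genes of 4 further apoptosis lists, 1 point per gene, with black bars at the list medians. All medians lie between -0.06 and 0.04, and Huwe1 (red diamond, 0.16) is the 1 gene with an adjusted p under 0.05.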

How the data were processed

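The data were RNA-seq of 3 control and 3 cholesterol samples, grouped by the treatment in their labels. The authors deposited estimated counts per gene (27.9% to 29.5% of values not whole), without normalization, and a second table of values normalized by the authors for depth and length, whose unit is unstated and was taken as FPKM. This was done because count, total and value implied the same gene length in every sample: over 2934 genes above 20 FPKM throughout, the median ratio of the largest to the smallest implied length was 1.00. The submitters' processing notes name HISAT2 2.0.4, Bowtie2 2.2.5, RSEM 1.2.12, DESeq2 1.4.5 and GRCm38.p6, without their settings, and strandedness is not given in the sources used here.

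The test had been planned for whole counts, so the estimated counts were rounded. edgeR 4.0.16 (R 4.3.3) was run with filterByExpr (count minimum 10, total minimum 15), TMM factors and the robust quasi-likelihood test, with Benjamini-Hochberg adjustment over 11277 genes, first for condition alone, then adding the number as a block. The labels give both groups the numbers 1 to 3, and the correlations of same-numbered deviations (0.729, 0.348 and 0.825) were all above 0.1. Samples with other numbers gave -0.795 to 0.346, the highest of which also lay above 0.1, so that limit alone does not tell like from unlike numbers. Alternatives were DESeq2 1.42.0, RLE factors, library totals, scaling without globin genes, other filters, limma 3.58.1 on log2(FPKM + 1) and log2(FPKM + 0.1), and samples left out. Groups of 3 allow an exact permutation test no p below 0.1, so none is printed. The scripts were tested on simulated data.

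The members, lists and tests were chosen with earlier results of these data known. Named genes were the members, the 3 genes of each further list with the smallest p without the block, those of a list past the adjusted threshold with it (at most 5), and the 3 most similar genes for Bcl2l1, Mcl1 and Bax. Bcl2l13, Bnip3l, Usp9x, Slc4a1, Diablo, the genes below the filter and those overlapping a member lie outside this rule and were named after their values were seen. Exons and the overlaps between genes come from GENCODE vM21 (GRCm38).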

Additional observations from a re-analysis of the deposited data

How the results depend on the processing

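No member was called under any of 255 alternative values of its fold change, of which 8 changed sign, all on leaving out 1 sample from the model with condition alone. Leaving out 1 sample there gave log2 fold changes from -0.405 to 0.224 for Bcl2l1, from -0.426 to 0.544 for Bcl2, from -0.011 to 0.242 for Bad and from -0.230 to 0.346 for Bbc3, and from -0.436 (without cholesterol sample 2) to -0.031 (without cholesterol sample 3) for Pmaip1, which kept its sign, as did Bid (0.135 to 0.269) and Bcl2l11 (0.019 without control sample 3 to 0.203 without cholesterol sample 3). For Bcl2l1 the sign turned without control sample 3 or cholesterol sample 1 or 2, for Bbc3 without control sample 1 or 2 or cholesterol sample 3, for Bcl2 without cholesterol sample 1, and for Bad without control sample 3. No sign changed with the replicate block, where Bid ranged from 0.15 to 0.29 with a lowest adjusted p of 0.101, and Bcl2l1 reached a lowest adjusted p of 0.0786.

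Over all genes, 1 was called with condition alone (1 to 8 when 1 sample was left out, with 8 without control sample 3 and 2 without cholesterol sample 3), 31 in DESeq2 (3 higher, 28 lower) and 772 with the replicate block (186 higher, 586 lower). With the block, DESeq2 called 286 (41 higher, 245 lower), limma 49 at a pseudocount of 1 (14 higher, 35 lower) and 200 at 0.1 (50 higher, 150 lower), and edgeR 1197 without a filter (368 higher, 829 lower) and 713 on library totals (278 higher, 435 lower). Leaving out a pair gave 296 to 821, the lowest without number 2. Of the 4 further lists, 0 genes were called with condition alone and 1 with the replicate block, Huwe1. The latter count was 0 in DESeq2 and 0 in both limma fits, and 0 to 2 without a pair (2 without number 1, Birc3 and Tnfrsf1a, both lower). The blocked fits with limma, other filters or other scaling were added after the data had been seen. The causes were not tested. Scaling moved the median log2 fold change of all genes by less than 0.1, but library totals in place of TMM took the blocked value from -0.071 to -0.040 for Bcl2l1, from -0.060 to -0.029 for Mcl1, from -0.056 to -0.026 for Bax, from 0.031 to 0.061 for Bak1 and from 0.039 to 0.069 for Bbc3. Leaving out a pair gave -0.105 to -0.011 for Bax, 0.006 to 0.052 for Bak1, -0.077 to -0.035 for Mcl1 and 0.046 to 0.166 for Bad. Depth limits Bcl2, at 4 to 18 counts per sample.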

Other observations

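Bcl2a1, an anti-apoptotic relative of Bcl2l1 that is known from granulocytes and mast cells, is present in mouse as near-identical copies between which short reads cannot be assigned with certainty, so the copies are summed here. Bcl2a1a, Bcl2a1b and Bcl2a1d together had estimated counts of 4, 14 and 48 in control samples 1, 2 and 3 and of 3, 9.01 and 18 in cholesterol samples 1, 2 and 3. The order of samples within each group was that of the summed neutrophil markers, which were 70.3, 253 and 674 CPM in control and 40.5, 110 and 280 CPM with cholesterol. That order was not particular to neutrophil markers, as the macrophage sums and the levels of Bcl2l1 and Bbc3 had it too. A link to any cell type was not tested. None of the copies passed the filter on low counts, so no test was made.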
